A study of Mus musculus with 6 samples.

Results

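The miR-30 family was measured with 11 assays (16 wells) among the 584 microRNA assays of the series. Its members were chosen by name alone: an assay counts if its name, without the species prefix and part number, reads miR-30a, miR-30b, miR-30c, miR-30d or miR-30e, with or without a copy number or an asterisk. Card A of the set holds the 5 assays named without an asterisk, and card B holds miR-30a*, miR-30b*, miR-30c-1*, miR-30c-2*, miR-30e* and a rat-named assay for miR-30d*. The samples are cell bodies of subcerebral projection neurons (SCPN, labelled test; 3 samples) and of callosal projection neurons (CPN, labelled control; 3 samples), purified from mice at postnatal day 1. SCPN send axons out of the cortex to the brainstem and spinal cord, and CPN connect the hemispheres. The sources used here give no strain, genotype or sorting method. Separate animals are not named for the replicates either, so the p-values measure only how these samples vary, and that variation may be technical.

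MicroRNAs guide Argonaute proteins to messenger RNAs, mostly through pairing of the seed near the 5′ end of the microRNA. The guide strands of the miR-30 family (names without an asterisk, 5p in later naming) share a seed, while the opposite strands (asterisk, 3p) carry others. The family is known from many tissues, among them kidney, muscle and brain, where miR-30a is known to repress brain-derived neurotrophic factor. MiR-384-5p, from a gene outside the family, is a seed relative described in rodent hippocampus in the maintenance of long-term potentiation.

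The mature sequences below, from RefSeq on build GRCm38.p6, show what the guide strands share and where they part. They are written 5′ to 3′ with the seed (bases 2 to 8) in capitals. Of the 11 assays, 7 matched an entry by name.
miR-30a-5p: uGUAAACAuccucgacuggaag
miR-30e-5p: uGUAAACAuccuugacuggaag
miR-30c-5p: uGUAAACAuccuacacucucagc
miR-384-5p: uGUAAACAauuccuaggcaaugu
miR-30a-3p: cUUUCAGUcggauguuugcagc
miR-30e-3p: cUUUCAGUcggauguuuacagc
miR-30c-1-3p: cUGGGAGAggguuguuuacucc
miR-30c-2-3p: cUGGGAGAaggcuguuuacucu
The seed GUAAACA was found in 4 of the 1679 mature microRNAs of the table, the 3 guide strands above and miR-384-5p. MiR-30b and miR-30d were not matched to a mature entry of that table, so this count does not include them. MiR-30a-5p and miR-30e-5p differ by the single substitution C13U (miR-30a base, position from the 5′ end, miR-30e base) and share their last 9 bases. MiR-30a-5p and miR-30c-5p share their first 12 bases and no run at the 3′ end. MiR-30a-3p and miR-30e-3p differ by G18A alone. How far an assay also reads a relative that differs by 1 base was not tested.

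The genes lie in neighbouring groups. MiR-30a-5p maps to chr1:23272274-23272295 on the plus strand, in Mir30a, beside Mir30c-2, which holds miR-30c-5p at chr1:23291714-23291736. A second copy of miR-30c-5p, from Mir30c-1 (chr4:120769584-120769606, minus strand), lies beside miR-30e-5p (chr4:120772660-120772681, minus strand), and both genes overlap Nfyc, which encodes a subunit of the NF-Y transcription factor. Mir30b and Mir30d are neighbours on chromosome 15. MiR-384-5p lies at chrX:105344332-105344354 on the minus strand. The miR-30c assay cannot tell its 2 gene copies apart, since their mature sequence is the same.

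Each well gave a threshold cycle (Ct), the PCR cycle in which the signal passes a threshold. A low Ct stands for much template. The mean Ct of the microRNAs measured in every sample (159 on card A and 65 on card B) differed widely between samples. On card A it was 21.8, 27.1 and 27.2 cycles in SCPN replicates 1 to 3, against 22.6, 28.1 and 24.7 in CPN replicates 1 to 3. Assays under the limit of Ct 35 numbered 265 to 331 in SCPN and 250 to 319 in CPN. Levels below are therefore relative: the mean Ct of the common assays of the sample and card was subtracted and the sign turned, so that 0 is the mean of those assays and 1 unit is 1 cycle (a log2 unit at full PCR efficiency). The neuron list (miR-9, miR-124, miR-128 and others) had 7 of 8 assays measured in every sample, with a median level of 2.05 to 3.61 in SCPN and 2.76 to 3.06 in CPN. Within it, miR-124 lay below 0 in all 6 samples, and miR-153 was under the limit in 1 SCPN and 2 CPN samples. The astrocyte list had 3 of 5 measured throughout (median level -2.53 to -0.21 in SCPN, -1.48 to -0.66 in CPN). For microglia and blood it was 4 of 6 (-2.57 to -1.65 and -2.36 to -1.33), and for oligodendrocytes 0 of 3. Of the epithelial markers (epithelia such as the kidney's also hold miR-30), miR-141, miR-200a and miR-200b were not under the limit in any sample. The other 2 of 5 were measured in every sample, with a median difference of 0.89 (SCPN minus CPN), but went opposite ways. MiR-200c differed by -0.90 and miR-203 by 2.67 (limma adjusted p 0.58 for miR-203). The levels of miR-203 were 2.94, 0.88 and 1.39 in SCPN, against 1.11, -3.09 and -0.81 in CPN. Of the muscle list, miR-133b was not under the limit in any sample and miR-1 in 0 SCPN and 2 CPN samples. The muscle marker miR-133a was lower in SCPN without overlap, at -5.01, -7.20 and -4.89 in SCPN, against -1.89, -1.91 and -2.29 in CPN. Its difference of -3.67 was the lowest of the 306 tested assays (limma unadjusted p 0.00155, adjusted p 0.24), while that of miR-206, also a muscle marker, was 2.85 (adjusted p 0.50). The vascular list had 3 of 4 assays measured in every sample, with a median difference of 0.79. The part of other cells in the results below was not tested. In such bulk samples fewer cells of a type and less RNA per cell cannot be told apart.

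Of the 11 assays, 7 were measured in all 6 samples: the 5 guide strands, miR-30a* and miR-30e*. MiR-30c-1* and miR-30c-2* gave no Ct in any of 12 readings each (2 wells in 6 samples). MiR-30b* gave a Ct in 3 of 12 readings, the lowest at 35.1, and was under the limit in 0 samples. The rat-named assay for miR-30d* was under the limit in 1 SCPN sample (Ct 25.2 in replicate 1) and in 2 CPN samples (26.1 in replicate 1 and 31.98 in replicate 3). It has only a bound in the other samples. Among the 3p strands, those of miR-30a and miR-30e were thus well measured, and those of both miR-30c genes were not detected.

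By mean level miR-30c and miR-30b were the highest of the family on card A, ranking 10 and 15 of the 159 common assays of that card in both groups. MiR-30a ranked 39 in SCPN and 29 in CPN, miR-30e 51 in SCPN and 41 in CPN, and miR-30d 79 in SCPN and 60 in CPN. On card B miR-30e* and miR-30a* ranked 7 and 8 of 65 in both groups. Ranks compare assays that can differ in PCR efficiency, so they describe the readout and not molecule numbers.

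MiR-30c, the highest of the family, had levels of 6.63, 5.06 and 5.27 in SCPN, against 6.96, 5.60 and 5.76 in CPN. MiR-30b had levels of 5.93, 4.65 and 4.64 in SCPN, against 6.40, 4.86 and 5.05 in CPN. In both assays replicate 1 was the highest sample of its group and the groups overlapped. MiR-30a stood at 3.57, 1.88 and 2.07 in SCPN, against 4.26, 3.14 and 2.79 in CPN. MiR-30d stood at 0.96, -0.30 and -0.18 in SCPN, against 1.93, 1.17 and 0.63 in CPN. For these 2 assays, as for miR-30b and miR-30c, SCPN replicate 1 lay among the CPN samples and SCPN replicates 2 and 3 lay below all of them. MiR-30e had another order: it stood at 1.37, 1.79 and 2.17 in SCPN, against 1.61, 3.01 and 2.40 in CPN, with replicate 1 the lowest sample of each group. On card B miR-30a* had levels of 5.04, 3.89 and 3.70 in SCPN, against 5.43, 3.65 and 4.52 in CPN. MiR-30e* had levels of 5.13, 3.95 and 3.82 in SCPN, against 5.49, 3.68 and 4.48 in CPN. Both 3p assays overlapped fully between groups.

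**Figure D1:**
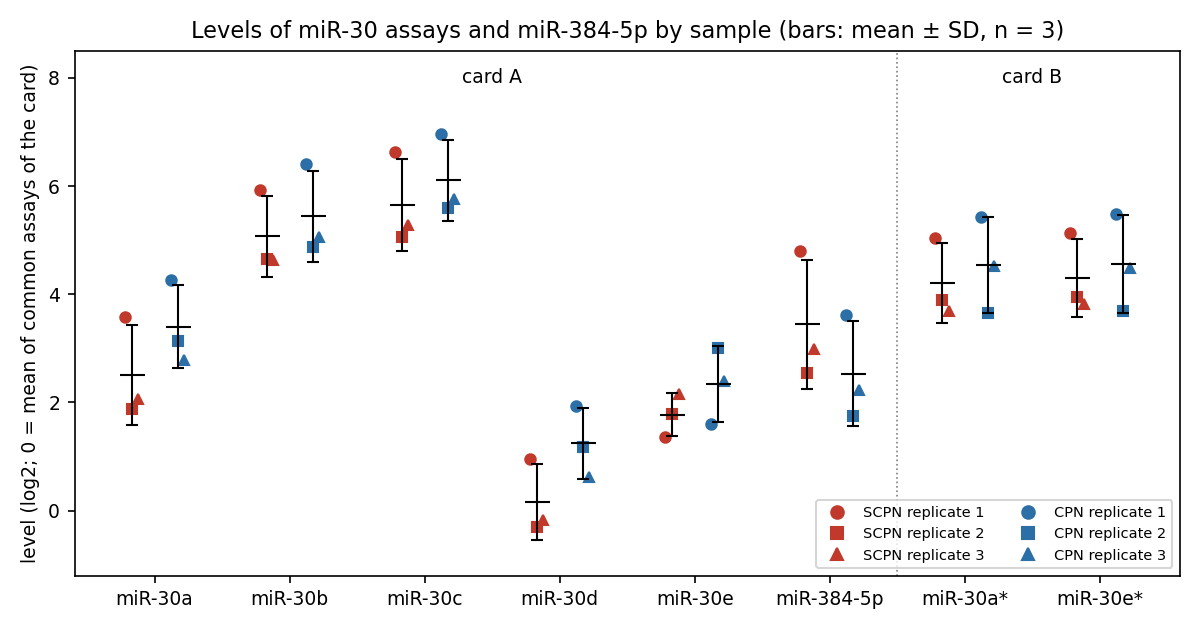
Levels of the 7 miR-30 assays measured in every sample and of the seed relative miR-384-5p (y axis, log2 scale with 0 at the mean of the common assays of the card), for SCPN (red, left) and CPN (blue, right); symbols give the replicate and bars the mean ± SD of 3 samples. MiR-30c and miR-30b are highest on card A, the groups overlap in all 8 assays, and replicate 1 is the highest sample of each group in every assay but miR-30e.

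The comparison of SCPN with CPN asked whether the family differs between these classes of cortical neuron. On the scale used here all 7 assays had a lower mean in SCPN, with log2 differences of -0.25 to -1.08, as did 56.7% of the 224 assays measured throughout, and none passed the test. MiR-30d differed most, averaging 0.16 ± 0.70 in SCPN and 1.24 ± 0.65 in CPN (SD, n = 3 each), and its log2 difference was -1.08 ± 0.65 (SE; limma adjusted p 0.79 over 306 assays, 95% interval -2.60 to 0.44). MiR-30a averaged 2.51 ± 0.93 in SCPN and 3.4 ± 0.77 in CPN (SD, n = 3 each), and its difference was -0.89 ± 0.72 (SE; limma adjusted p 0.81, interval -2.58 to 0.79). The differences were -0.57 ± 0.61 for miR-30e, -0.45 ± 0.70 for miR-30c and -0.37 ± 0.70 for miR-30b, and -0.33 ± 0.70 for miR-30a* and -0.25 ± 0.71 for miR-30e* (SE).

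Over all assays 0 of 306 passed an adjusted p of 0.05 by limma (0%), and 25 had an unadjusted p under 0.05 (8.17%), of which 0 were miR-30 assays. With the replicate number as a block, 51 had such a p (16.7%), among them miR-30d (unadjusted p 0.0426, adjusted p 0.28). The median difference of the 7 assays was -0.45, beside -0.13 over the 224 assays measured throughout. Outside the family and the imprinted 12qF1 microRNAs it was -0.29, with 120 of 185 assays lower in SCPN. Without CPN replicate 1 the differences of miR-30b, miR-30a* and miR-30e* turned to 0.11, 0.12 and 0.22. In same-numbered samples each of the 5 guide strands was lower in SCPN in all 3 pairs, as were 28.1% of these 224 assays. The pair differences were -0.97, -1.47 and -0.81 for miR-30d and -0.47, -0.22 and -0.41 for miR-30b. The 3p assays went both ways, with miR-30a* at -0.38, 0.23 and -0.83. In 0 of the 7 assays did all SCPN samples lie below all CPN samples, against 6.21% of all tested assays. Among other families of abundant brain microRNAs the medians over members measured throughout were -0.06 for let-7 (5 of 8 lower), -0.20 for miR-29 (2 of 3 lower) and -1.003 for miR-181 (3 of 3 lower).

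Whether the family appears lower or higher in SCPN depended on the scale. In the authors' deposited table, scaled on control RNAs, the ratio of SCPN to CPN was above 1 for all 7 miR-30 assays it lists: 1.83 for miR-30b, 1.73 for miR-30c, 1.60 for miR-30e, 1.27 for miR-30a, 1.12 for miR-30d, 1.04 for miR-30a* in both wells, and 1.11 and 1.08 in the wells of miR-30e*. That table has 80.8% of its 240 assays above 1, with a median ratio of 1.72. MiR-30b and miR-30c lay above that median, which pools both cards, and the other 5 lay below it. Relative to the scale on common assays, the deposited scale shifted card A by 1.24 and card B by 0.38. On the deposited scale the median fitted log2 difference of the common assays was 1.12 on card A and 0.22 on card B. All 5 guide strands, at 0.16 to 0.87, lay below the card A median. MiR-30a* (0.056) and miR-30e* (0.13) lay below that of card B. These places repeat the common-assay scale, since subtracting 1 value per sample and card moves a card's assays alike. After quantile normalization miR-30b (0.072) and miR-30c (0.13) lay above the card A median of -0.067, and miR-30a, miR-30d and miR-30e below it. MiR-30a* (-0.10) and miR-30e* (0.048) then lay above the card B median of -0.16. Fitted on the deposited scale, 82.6% of all common assays had a higher mean in SCPN. Scaled on the controls other than U6, the 7 differences ran from 0.24 to 0.96, where 91.1% of all common assays had a higher mean in SCPN and their median shifted by 1.32 (card A) and 0.83 (card B). Leaving the imprinted 12qF1 microRNAs, all 32 of which had a higher mean in SCPN, out of the scaling set moved the card A median by 0.35. With that scale miR-30d differed by -0.74, miR-30a by -0.55, miR-30e by -0.22, miR-30c by -0.11 and miR-30b by -0.02. The U6 wells of CPN replicate 1 averaged Ct 16.2 on card B and 9.91 on card A, while in the other 5 samples both cards lay within 1 cycle. These wells enter the deposited scale of miR-30a* and miR-30e*, and their part in those ratios was not tested.

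**Figure D2:**
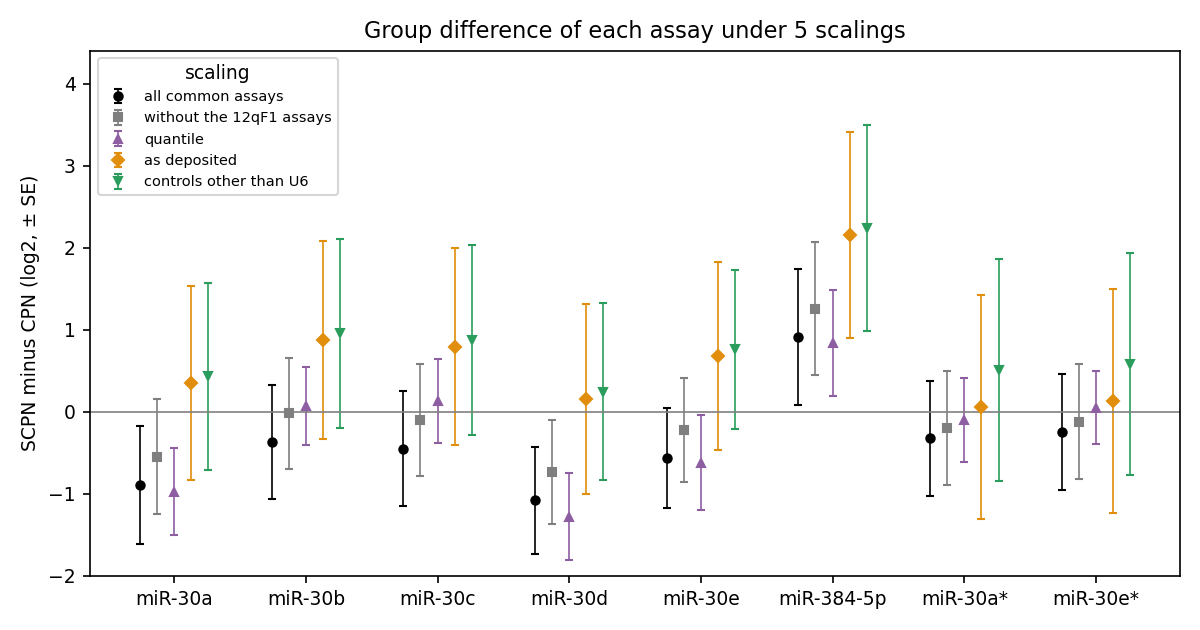
Difference of SCPN minus CPN (y axis, log2, ± SE) of each assay under 5 scalings, shown by colour and symbol. The 7 miR-30 assays lie below 0 when scaled on the common microRNAs and above 0 with the deposited scale or with controls other than U6; quantile normalization puts miR-30b, miR-30c and miR-30e* just above 0. On card A miR-30d is lowest and miR-384-5p highest under all 5.

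Subtracting 1 value per sample and card, as every scaling here but quantile normalization does, leaves the difference between 2 assays of that card unchanged, so the members were also set against each other. The means of miR-30a and miR-30d relative to miR-30b and miR-30c were lower in SCPN than in CPN, but 3 samples against 3 are too few for this to pass the permutation test. The level of miR-30b minus that of miR-30d was 4.97, 4.95 and 4.82 cycles in SCPN, against 4.47, 3.69 and 4.42 in CPN. The groups did not overlap, although the genes of these microRNAs are neighbours, and the means differed by 0.71 cycles. MiR-30c minus miR-30d was 5.66, 5.37 and 5.45 in SCPN, against 5.03, 4.43 and 5.13 in CPN, a difference of 0.63. MiR-30a minus miR-30b was -2.36, -2.77 and -2.57 in SCPN, against -2.14, -1.72 and -2.26 in CPN, a difference of -0.53. MiR-30a minus miR-30c, also from neighbouring genes on chromosome 1, was -3.05, -3.19 and -3.21 in SCPN, against -2.70, -2.46 and -2.97 in CPN, a difference of -0.44. These 4 were the pairs of the 10 among guide strands in which the groups did not overlap. Of all 12561 pairs of common card A assays, 21.2% did not overlap. The 10 pairs rest on 5 assays and are not independent of each other. After quantile normalization these 4 differences were larger. They were 1.35 and 1.41 for miR-30b and miR-30c minus miR-30d, and -1.05 and -1.11 for miR-30a minus miR-30b and miR-30c. In 5 of the 10 pairs the groups then did not overlap. The share of all card A pairs was not computed after quantile normalization, and the 21.2% does not apply to it.

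Each of these 4 pairs had an exact two-sided permutation p of 0.1, the smallest that 3 against 3 allows, and 0.2 after adjustment over the 16 pairs compared, so none passed. In all 4 CPN replicate 2 was the CPN sample farthest from SCPN. Without it the differences were 0.46 for miR-30b minus miR-30d and 0.41 for miR-30c minus miR-30d. Without quantile normalization the groups overlapped in the pairs within each side. MiR-30b minus miR-30c averaged -0.58 ± 0.14 in SCPN and -0.67 ± 0.096 in CPN (SD, n = 3 each; exact permutation p 0.5), and miR-30a minus miR-30d averaged 2.35 ± 0.23 in SCPN and 2.16 ± 0.18 in CPN (SD, n = 3 each; exact permutation p 0.4). After quantile normalization the groups no longer overlapped in miR-30a minus miR-30d. It was then 2.37, 2.27 and 2.44 in SCPN, against 2.09, 1.85 and 2.23 in CPN.

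**Figure D3:**
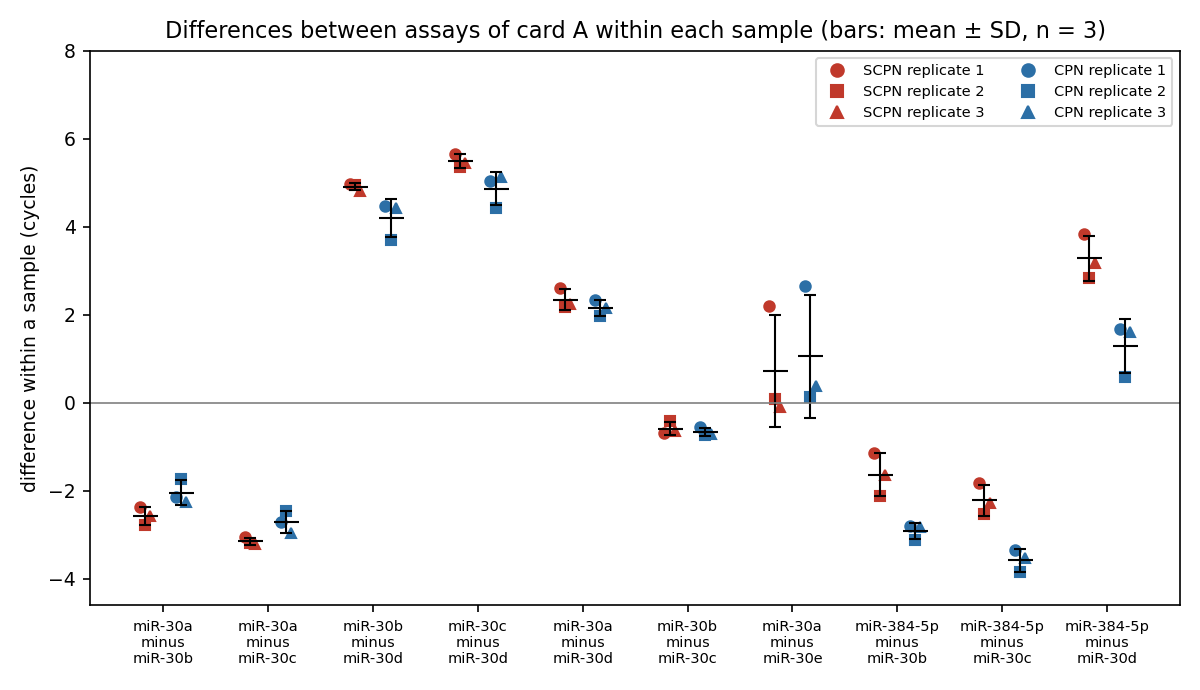
Difference between 2 assays of card A within each sample (y axis, cycles; positive where the first assay is higher), for SCPN (red, left) and CPN (blue, right), with the mean ± SD of 3 samples. The first 4 columns and the last 3 show groups that do not overlap, and miR-30a minus miR-30e spreads over 2.76 cycles across the 6 samples.

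MiR-384-5p, which shares the seed, had a higher mean in SCPN on the same scale. Its levels were 4.80, 2.54 and 2.99 in SCPN, against 3.61, 1.75 and 2.24 in CPN. Its log2 difference was 0.91 ± 0.83 (SE; limma adjusted p 0.81), and it was 0.23 without SCPN replicate 1. The authors' deposited table gives it a ratio of 4.45. Its groups overlapped, with SCPN replicate 1 highest and CPN replicate 2 lowest. It was also set against the family within samples. MiR-384-5p minus miR-30d was 3.83, 2.84 and 3.17 cycles in SCPN, against 1.68, 0.58 and 1.61 in CPN, so the means differed by 1.99 cycles. MiR-384-5p minus miR-30a was 1.22, 0.66 and 0.93 in SCPN, against -0.65, -1.40 and -0.56 in CPN, a difference of 1.81. MiR-384-5p was thus above miR-30a in every SCPN sample and below it in every CPN sample, as read by these assays. The differences against miR-30c and miR-30b were 1.36 and 1.28, also without overlap, and against miR-30e it was 1.48 with overlap (0.60 without SCPN replicate 1 and 2.38 without CPN replicate 1). After quantile normalization the differences against miR-30b and miR-30c were 0.77 and 0.71, and 3 of the 5 pairs did not overlap. No share over other assays was computed for that normalization. These 5 pairs were chosen after the values were seen. For the 4 without overlap the exact permutation p was 0.1, which 3 against 3 cannot undercut, and the adjusted p over 16 pairs was 0.2, so none passed. Among the other 153 common card A assays, 19% did not overlap when set against miR-384-5p in the same way, with miR-384-5p higher in SCPN. The opposite strand, miR-384-3p, was under the limit in 3 SCPN and 2 CPN samples. Its unscaled Ct was 26.0, 34.5 and 32.5 in SCPN, against 34.5 and 32.5 in CPN replicates 1 and 3. Scaled, its levels were -4.25, -7.34 and -5.30 in SCPN, against -11.89 and -7.78 in those CPN samples. With CPN replicate 2 at the limit, its log2 difference was 3.24 ± 1.40 (SE; limma adjusted p 0.60).

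MiR-30e did not follow the other guide strands from sample to sample. MiR-30a minus miR-30e was 2.20, 0.09 and -0.10 cycles in SCPN, against 2.66, 0.13 and 0.39 in CPN. The 2 samples with a difference above 2 cycles are SCPN replicate 1 and CPN replicate 1, which also had the lowest mean Ct. Relative to the other 4 samples, the mean level in these 2 differed by -0.86 for miR-30e (1.49 against 2.34) and by 1.12 to 1.45 for the other 6 assays. For 5 of those 6, both samples lay above all the others, as for 21% of the 224 common assays. For miR-30e both lay below all the others, as for 17.4%. The share of template amount and assay efficiency in this pattern was not tested. The 3p strands behaved differently: miR-30a* minus miR-30e* lay between -0.13 and 0.041 cycles in all 6 samples, while duplicate wells of miR-30e* differed by up to 0.36 cycles.

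**Figure D4:**
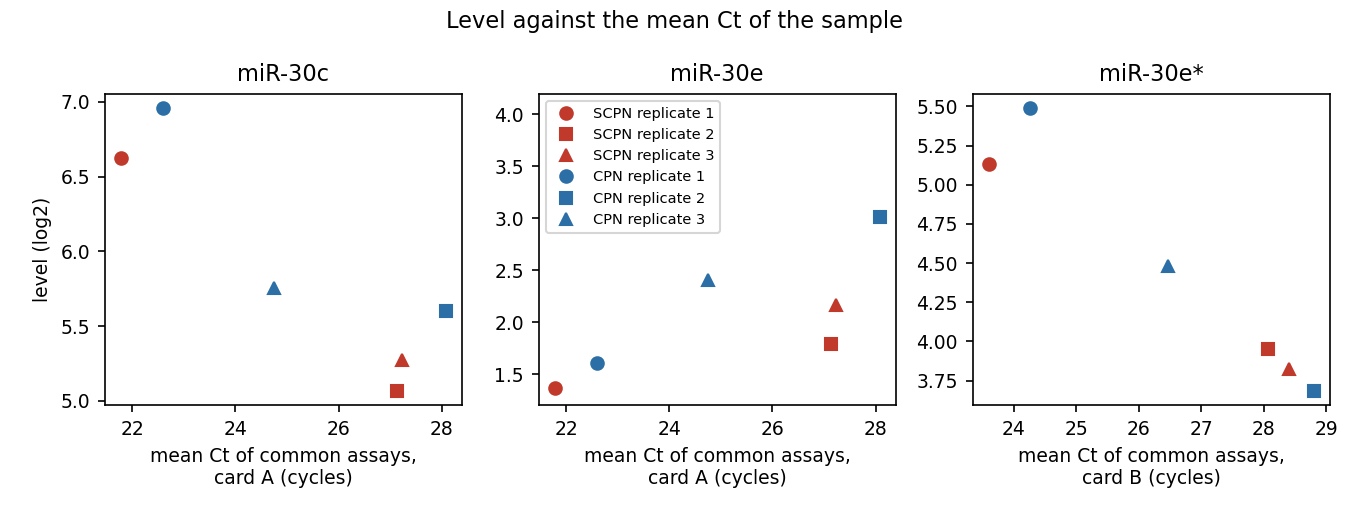
Level of miR-30c, miR-30e and miR-30e* (y axes, log2) against the mean Ct of the common assays of their card (x axes, cycles; a lower value means more template), 1 point per sample, SCPN red and CPN blue. MiR-30c and miR-30e* are highest and miR-30e is lowest in replicate 1 of both groups, the 2 samples with the lowest mean Ct.

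Among the 154 other common assays of card A, the 5 whose profile over the 6 samples lay nearest to the mean profile of the 5 guide strands were miR-130b, miR-125b-5p, miR-132, miR-708 and miR-335-3p. Their root mean square differences were 0.27 to 0.32 cycles, with each profile centred on its own mean, against a median of 0.91 over the 154. Of the guide strands themselves, miR-30a, miR-30b, miR-30c and miR-30d lay at 0.25 to 0.31 and miR-30e at 0.84. Each guide strand is part of the mean profile, which makes its own distance smaller. These values are therefore not on a par with those of outside assays. The seed relative miR-384-5p lay at 0.93 and ranked 80. The nearest assay, miR-130b, had levels of -1.12, -2.57 and -2.40 in SCPN, against -0.34, -1.71 and -1.39 in CPN. MiR-125b-5p, an abundant brain microRNA, had levels of 6.09, 5.18 and 5.08 in SCPN, against 7.14, 6.70 and 5.82 in CPN. The other 3 differed between groups by -0.25 to -0.49, and none of the 5 passed the limma test.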

How the data were processed

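The measurements come from TaqMan rodent microRNA cards (miRBase release 10), per the series' design text. The deposited threshold cycles are per well, as the authors' raw sheet gives them. The deposited normalised cycles equal these minus 1 value per sample and card, taken from control wells, and the deposited ratio (fold) is 2 to the power of mean normalised CPN minus SCPN cycles, as checked on the files. How thresholds were set is not given in the sources used here. Duplicate wells were averaged, leaving out any without a Ct, means of 35 or more were set to 35, and the mean of the assays under 35 in all samples was subtracted per sample and card. Assays under 35 in at least 3 of 6 samples (306: 208 on card A, 98 on card B) were fitted with limma (version 3.58.1; R version 4.3.3), with two-sided p-values adjusted over all of them by Benjamini-Hochberg; the fit was tested on simulated data. No read depth exists, and 3 samples per group limit the precision.

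The labels state no pairing, so the main fit and the permutation tests left the replicate number out. Same-numbered samples deviated together from their group means (correlations of 0.55, 0.29 and 0.30 over 306 assays). No such correlation was computed for differently numbered samples, so these values cannot show that the numbers pair the samples. Replicate 1 of both groups had the lowest mean Ct, and its part in these correlations was not tested. The replicate block and same-numbered pairs are given only beside the main fit. Within-sample differences were tested by exact permutation over samples. All miR-30 assays are named, with miR-384-5p, miR-384-3p (looked up after its values were seen) and the 5 nearest profiles. No 5p and 3p assay of 1 gene shared a card, so strand pairs were not compared. Members and lists were chosen with earlier results of these data known. The 12qF1 set was taken from gene positions in the RefSeq table. Other scalings, Ct limits (32 or none), filters, well rules, moderation, weights, the block and samples left out in turn were tried.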

Additional observations from a re-analysis of the deposited data

How the results depend on the processing

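No assay passed adjusted p 0.05 with all samples, and the count was 0 under every alternative but sample weights, where 1 assay passed, miR-666-5p, which is outside the family and was named only after the fit. It was 0 without any 1 sample. The replicate block changed no call of a miR-30 assay, and over 20 alternatives the adjusted p of the 5 guide strands ran from 0.28 to 0.997. The median difference of the tested miR-30 assays was 0.54 with controls other than U6, against -0.48, and -0.80 to -0.025 with 1 sample left out. The lowest size, -0.025, was that without CPN replicate 1. With controls other than U6 the sign turned for all 8 assays: 0.43 for miR-30a, 0.51 for miR-30a*, 0.96 for miR-30b, 0.87 for miR-30c, 0.24 for miR-30d, 0.76 for miR-30e, 0.58 for miR-30e* and 0.33 for miR-30d*. With the deposited scaling it turned for 7: 0.35 for miR-30a, 0.056 for miR-30a*, 0.87 for miR-30b, 0.79 for miR-30c, 0.16 for miR-30d, 0.68 for miR-30e and 0.13 for miR-30e*. Both move most assays of a card up together. MiR-30d*, unlike the others of the 8, was under the limit only in 1 SCPN and 2 CPN samples. Its other values are the limit itself, so its differences rest partly on that limit. Quantile normalization gave 0.072 for miR-30b, 0.13 for miR-30c and 0.048 for miR-30e*. The cause of these sign changes was not tested. A Ct limit of 32 gave 0.43 for miR-30d*, whose values at the limit move with it.

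With 1 sample left out, differences ran from -1.43 to -0.46 for miR-30a, -0.84 to 0.12 for miR-30a*, -0.80 to 0.11 for miR-30b, -0.94 to -0.025 for miR-30c, -1.48 to -0.74 for miR-30d, -0.93 to -0.29 for miR-30e, -0.76 to 0.22 for miR-30e*, -1.42 to 0.41 for miR-30d* (tested in 3 cases only) and 0.23 to 1.45 for miR-384-5p. Positive values of miR-30a*, miR-30b and miR-30e* were those without CPN replicate 1. The value of miR-384-5p was lowest without SCPN replicate 1. Guide pairs without overlap numbered 4 to 6 with 1 sample left out, which cannot lower this count. The share over all card A pairs was not computed for 5 samples. With no Ct limit or with undetermined wells at the limit the count was 4. Neither rule can change it, since every guide-strand well gave a Ct, at most 27.4. Pair differences with miR-30e turned sign: -1.07 to 0.47 for miR-30a, -0.44 to 1.05 for miR-30b, -0.58 to 0.91 for miR-30c and -1.12 to 0.19 for miR-30d minus miR-30e. Those of miR-384-5p kept their sign, at 0.60 to 2.38 against miR-30e. Quantile normalization, added here for the pairs after seeing the data, gave 5 guide pairs without overlap and turned miR-30b minus miR-30c to -0.057. The share of all card A pairs without overlap was not computed for it. Paired sign-flip tests cannot go below 0.25.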
